A study of Mus musculus with 6 samples.

Results

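The replication-dependent histone genes were followed in RNA-seq libraries of CD27SP NK cells, the immature NK1.1+CD27+CD11b−CD3/19− subset sorted from BM. The mice were Ncr1cre Myc wt/wt or, with a conditional Myc allele, Ncr1cre Myc fl/fl. Members were all genes whose GENCODE M21 symbol starts with Hist1h, Hist2h, Hist3h or Hist4h. There were 70 such symbols, of which 67 were among the 25690 symbols in the tables, and the other 3 (Hist1h2aj, Hist1h2al and Hist3h2bb-ps) are pseudogenes that were not analysed here. By type, the 70 comprised 6 H1, 20 H2A, 19 H2B, 12 H3 and 13 H4 genes. Both genotypes carried Ncr1cre, which places the Cre recombinase in the locus of Ncr1, the gene of the NK cell receptor NKp46. Deletion therefore starts only in cells that have begun to express NKp46, and a CD27SP population can hold cells with an intact allele. The Ncr1cre Myc fl/fl mice carried in addition both Myc alleles flanked for deletion, whereas the Ncr1cre Myc wt/wt mice had both alleles intact. All mice were on a C57BL/6 background and, per the study's methods, sex- and age-matched at 6 to 14 weeks. Each genotype had 3 libraries, numbered 1, 2 and 4. Nothing in the labels says whether these came from separate mice, so the p-values measure the spread between libraries. CPM below are counts scaled to library size with TMM factors, TPM are in addition per transcript length, and log2 fold changes are of fl/fl against wt/wt cells.

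Histones H2A, H2B, H3 and H4 form the protein core around which DNA is wound, and the linker histone H1 binds the DNA between cores. Each type is encoded by many near-identical gene copies that are transcribed in S phase, when newly made DNA has to be packed. Their mRNAs are unlike other mRNAs because they end in a short stem-loop instead of a poly(A) tail. The stem-loop is bound by the protein Slbp and the transcript is cut just after it by a complex that includes the U7 small nuclear RNA. Some copies also give rise to transcripts that run on past the stem-loop and end in a poly(A) tail, which occurs in cells that have stopped dividing. The study's methods name poly(A) selection and random priming for these libraries, and how well transcripts without a tail were captured is not given in the sources used here.

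The stem-loop was found with the pattern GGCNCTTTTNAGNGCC, searched on the transcript strand, in 44 of the 75 member transcripts in the tables, from 42 genes. The most common form was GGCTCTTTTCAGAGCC with 28 transcripts. All 9 H4 transcripts with a match, and no transcript of another type, began it with GGCCC. The lines below show the stem-loop with the bases around it in members described in the results, 5′ to 3′, with the match in capitals. They were read from the GENCODE M21 transcripts.
Hist1h1c: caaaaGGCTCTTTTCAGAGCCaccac
Hist1h1e: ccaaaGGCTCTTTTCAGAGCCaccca
Hist1h2ab: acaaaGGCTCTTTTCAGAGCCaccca
Hist1h2ae: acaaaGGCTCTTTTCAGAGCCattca
Hist1h2ao: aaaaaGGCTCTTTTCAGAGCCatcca
Hist1h2ap: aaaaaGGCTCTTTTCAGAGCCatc
Hist1h2bg: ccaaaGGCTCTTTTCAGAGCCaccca
Hist1h4d: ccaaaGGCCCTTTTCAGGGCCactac
Hist1h4n: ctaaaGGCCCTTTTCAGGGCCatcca
Hist2h4: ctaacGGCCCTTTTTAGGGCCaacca

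The annotated transcripts differ in where they stop. That of Hist1h2ap ends 3 bases after the stem-loop and that of Hist1h4n after 31 bases, whereas that of Hist1h1c runs on for 840 bases and that of Hist1h1e for 1153. The annotated Hist1h1b transcript, 743 bases long, holds no match. A further feature was a run of 12 A bases that directly precedes the stem-loop in the H2A genes Hist1h2ap and Hist1h2ao, while the longest run is 8 bases in Hist1h2ae and 4 in Hist1h2ab, each 4 bases before it. The lines below show that run in capitals for these 4 H2A genes, whose levels are described library by library.
Hist1h2ap: cccgaaaagAAAAAAAAAAAAggctctttt
Hist1h2ao: cccgaaaagAAAAAAAAAAAAggctctttt
Hist1h2ae: cttctaatctcgtAAAAAAAAcaaaggctc
Hist1h2ab: ccagttgaaagttaaccAAAAcaaaggctc

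The copies were alike in sequence. Of the 31-base words of a member's main transcript, a median of 44.8% occurred in no transcript of another gene in the tables' annotation. That share was 96.2% for H1, 25.1% for H2A, 44.5% for H2B, 39.0% for H3 and 52.1% for H4 genes. Hist1h2ap shared 422 of its 452 words with Hist1h2ao, which left 6.64% and 6.22% of their words unique. Values of single genes with few unique words can depend on how the quantifier divided shared reads, which was not tested. Sums over a type are given beside them, but all 18 H2A genes also shared words with transcripts of other genes (177 of the 452 words of Hist1h2ap), so that the H2A sum too can depend on it. H1 genes had the largest unique share.

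Promoters were matched for 62 of the 70 members (63 windows of 250 bases before to 50 after the start, RefSeq, GRCm38.p6). CCAAT, searched on both strands, was in 85.7% of them against 37.4% of all 32851 promoters, and TATAAA in 55.6% against 13.6%. CACGTG, the core E-box sequence to which Myc binds with its partner Max, was in none of the member windows and in 7.15% of all, which says only that these letters are not in these windows. Types differed in CCAAT, which was in all 6 H1, 18 H2A, 16 H2B and 10 H3 members matched but in 3 of 12 H4 members. Printed here are the promoter of Hist1h1b (chr13:21780576-21780875, minus strand), the member with the smallest adjusted p, and that of Hist1h2ae (chr13:23571171-23571470, minus strand), which shares 279 bases of its window with Hist1h2bg, the H2B gene on the opposite strand. Capitals mark CCAAT and TATAAA on either strand, CCAAT reading as ATTGG and TATAAA as TTTATA where it lies on the opposite one.
Hist1h1b: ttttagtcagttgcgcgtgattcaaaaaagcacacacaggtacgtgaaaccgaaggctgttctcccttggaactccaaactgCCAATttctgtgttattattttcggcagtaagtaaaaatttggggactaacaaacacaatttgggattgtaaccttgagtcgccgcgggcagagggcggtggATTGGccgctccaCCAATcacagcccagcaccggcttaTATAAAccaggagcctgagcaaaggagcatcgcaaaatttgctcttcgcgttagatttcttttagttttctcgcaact
Hist1h2ae: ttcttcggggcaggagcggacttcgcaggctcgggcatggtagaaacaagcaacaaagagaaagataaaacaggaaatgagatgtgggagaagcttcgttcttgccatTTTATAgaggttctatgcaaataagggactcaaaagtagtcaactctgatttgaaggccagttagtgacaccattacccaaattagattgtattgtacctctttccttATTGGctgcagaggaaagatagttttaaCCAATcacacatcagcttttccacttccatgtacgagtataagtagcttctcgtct

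Of the 67 genes in the tables, 66 had at least 1 count in some library, 63 had at least 10 counts in some library and 42 had at least 10 in all 6. Hist1h4m had no count in any library. The number with at least 10 counts was 44 in wt/wt library 1 and between 61 and 63 in each other library. That library was shallow, with a total of 8101219 estimated counts against 54550907 to 64962491 in the others. Of the 67 genes, 62 had enough counts for a test: 5 H1, 17 H2A, 17 H2B, 12 H3 and 11 H4 genes. Those left untested were Hist1h1t, Hist1h2aa and Hist1h2ba, known as testis histones, and Hist1h4k and Hist1h4m.

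The wt/wt library 1 also stood apart in its histone counts. Members took up 0.740% of its counts, against 0.143% and 0.162% in wt/wt libraries 2 and 4 and 0.103%, 0.0899% and 0.106% in fl/fl libraries 1, 2 and 4. Nearly all of the excess lay in H2A genes, which made up 97.4% of the member CPM in that library and from 75.1% to 81.7% in the others. Of all 15474 tested genes, 16 had there at least 5 times their highest level in any other library, and 8 of these 16 were H2A members. At the same time 9 members were below 0.5 times their lowest level elsewhere, among them Hist1h2ao, the near copy of Hist1h2ap, which is 14.5% of the tested members against 8.26% of all tested genes. What set this library apart was not tested, and results are given with and without it.

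Levels differed widely among types. On the TPM scale, which is per transcript length, H2A genes held between 86.8% and 90.4% of the members' sum in the 5 deeper libraries, and 98.9% in wt/wt library 1. Hist1h2ap alone, on chromosome 13 of GRCm38 from 21833026 to 21833507, had a mean of 4259 TPM over those 5 libraries. Next by the same measure came Hist1h2ao with 623 TPM, Hist1h2ae with 106 and Hist2h2aa1 with 102. The highest H4 gene was Hist1h4n with 75.2 TPM, the highest H2B gene Hist1h2bg with 58.0, the highest H1 gene Hist1h1b with 32.4 and the highest H3 gene Hist1h3i with 28.7. Of the 67 genes, 35 had a mean of at least 10 TPM over the 6 libraries and 61 of at least 1.

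Myc and Mki67 were measured as references. Myc had 200.5, 183 and 164 CPM in wt/wt cells, in the order of libraries 1, 2 and 4, and 61.5, 64.6 and 76.5 in fl/fl cells, a log2 fold change of −1.44 ± 0.155 (SE, n = 3 each, adjusted p = 0.00189, edgeR). Mki67, a marker of dividing cells, had 286, 197 and 191 CPM in wt/wt and 101, 72.9 and 106.5 in fl/fl libraries, with −1.26 ± 0.162 (adjusted p = 0.00348, edgeR). In neither gene did the genotypes overlap. Without replicate 1 their adjusted p-values were 0.0105 and 0.0183 (edgeR). In bulk samples, fewer cells in S phase and less histone mRNA per cell cannot be told apart.

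The summed level of all members was lower in Ncr1cre Myc fl/fl cells. It was 7783, 1403 and 1610 CPM in wt/wt libraries 1, 2 and 4 and 1009, 897 and 1066 CPM in fl/fl libraries 1, 2 and 4, so that each fl/fl library lay below each wt/wt library. The wt/wt mean of 3599 ± 3626 CPM (SD, n = 3) rested mostly on library 1. Against wt/wt libraries 2 and 4, with a mean of 1506 CPM, the fl/fl mean of 991 ± 86.2 CPM (SD, n = 3) was 65.8%, a log2 ratio of −0.60, while against all 3 it was 27.5%. With Hist1h2ap left out, the fl/fl mean was 68.9% of that of wt/wt libraries 2 and 4, and the groups did not overlap either.

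Types did not share this difference evenly. The H2A sum was 7584, 1106 and 1315 CPM in wt/wt and 795, 674 and 830 in fl/fl libraries. For H1 it was 56.3, 73.7 and 66.3 against 47.0, 47.8 and 53.3 CPM, and for H4 it was 58.6, 110.4 and 114 against 68.5, 72.8 and 65.4. H1 and H2A did not overlap between genotypes, whereas the H4 sum of wt/wt library 1 lay below every fl/fl library. The H3 sum was 24.4, 35.7 and 37.9 CPM in wt/wt and 33.6, 30.6 and 30.6 in fl/fl libraries. That of H2B was 59.9, 77.2 and 76.0 against 65.5, 71.5 and 86.5 CPM, and overlapped with or without library 1. Without wt/wt library 1 the log2 ratios were −0.50 for H1, −0.66 for H2A, −0.70 for H4 and −0.22 for H3, all 4 without overlap, and −0.04 for H2B.

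**Figure D1:**
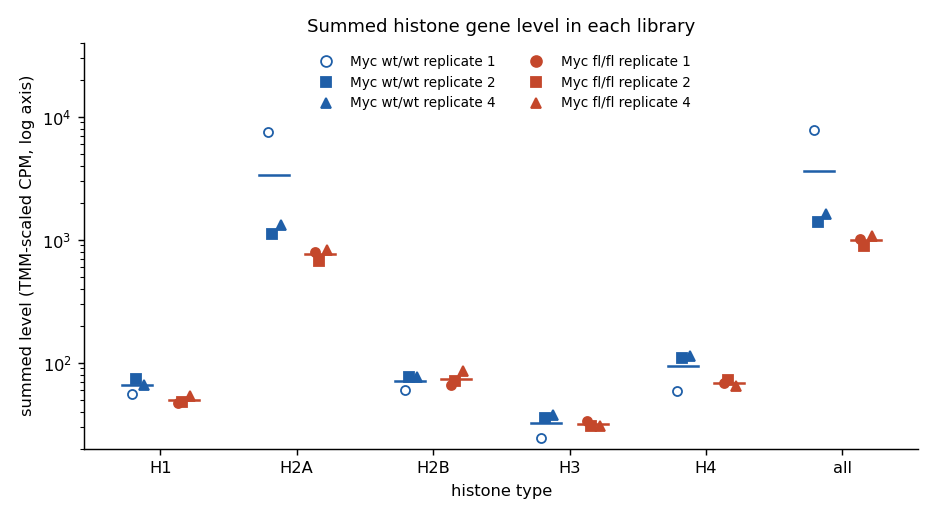
Summed level per histone type and over all members (TMM-scaled CPM, log axis) in each of 6 libraries, blue for Myc wt/wt and red for Myc fl/fl, with a bar at the mean of the 3 libraries and an open circle for the shallow wt/wt library 1. Its H2A sum of 7584 CPM lies far above the other libraries, while its H3 and H4 sums of 24.4 and 58.6 CPM are the lowest of the 6.

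Gene by gene, most members had lower values in fl/fl cells but few passed a test. Calls required an adjusted p below 0.01 and a log2 fold change of 0.5 or more in either direction. By this rule 0 of the 62 tested members were lower and 0 were higher, against 0.872% and 1.28% of all 15474 genes (edgeR). With no adjustment and p below 0.05, edgeR found 14 lower members and 1 higher one (Hist1h1c), which is 22.6% and 1.61% against 10.2% and 12.4% of all genes. DESeq2 called 4 lower members (Hist1h1b, Hist1h1e, Hist1h2ab and Hist1h2af), where it called 3.47% of all genes lower, and no higher one against 4.16%. Without replicate 1 edgeR called 0 lower and 0 higher, against 0.0636% and 0.312% of all genes. At an adjusted p below 0.05 alone, edgeR had 4 lower members (Hist1h1b, Hist1h2ab, Hist1h2af and Hist1h2ag) and 0 higher, 6.45% against 3.38% of all genes for the lower side and none against 4.45% for the higher side. Hist1h2af would not have met the filter on low counts by its fl/fl libraries alone, so that its lower value supports nothing. This excess depended on the method. limma gave 2 lower members (3.23% against 3.04%), the largest adjusted p of 3 methods 2 (3.23% against 3.02%) and effective length offsets 1 (1.61% against 1.80%). With no replicate block edgeR gave 3 (Hist1h1b, Hist1h1e and Hist1h2ab, 4.84% against 4.47%). DESeq2 gave 7 (11.3% against 5.74%) and edgeR with no filter on low counts 12 of 66 (18.2% against 3.61%). Leaving out replicate 2 gave 5 (8.06% against 1.89%), and replicate 4, 6 (9.68% against 2.61%). The median log2 fold change was −0.31 over the 62 members and 0.01 over all genes. Of the members 43 (69.4%) were below 0 and 19 above, against 48.5% and 51.5% of all genes, and without replicate 1 it was 48 of 63 members (76.2%) against 49.8% of all genes. The members' share was smaller without replicate 2 (61.3% against 46.4%) and without replicate 4 (58.1% against 49.7%), where the median was −0.22 and −0.11.

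Libraries of the genotypes were also compared without a model. In 13 of the 62 members every fl/fl library lay below every wt/wt library, against 15.1% of all genes, and in 0 was it the reverse, against 16.2%. Without wt/wt library 1 these were 30 members (48.4%) against 22.3% and 2 members (3.23%, Hist1h2ac and Hist1h2bc) against 21.8%. With replicate 1 left out of both genotypes, 6 of 63 members were lower at an adjusted p below 0.05 in edgeR (9.52%, against 1.69% of all genes) and none was higher, against 2.44%. These were Hist1h1b, Hist1h2ad, Hist1h2ao, Hist1h2ap and Hist1h4d, and Hist1h4k, which entered this fit only through its wt/wt counts, so that its lower value supports nothing. Only Hist1h1b was in this list and in that from all 6 libraries, but it was not among the 5 members lower at this limit without replicate 2. Hist1h2ap, absent from the list of all 6 libraries, was in the lists without replicate 1, without replicate 2 and without replicate 4.

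**Figure D2:**
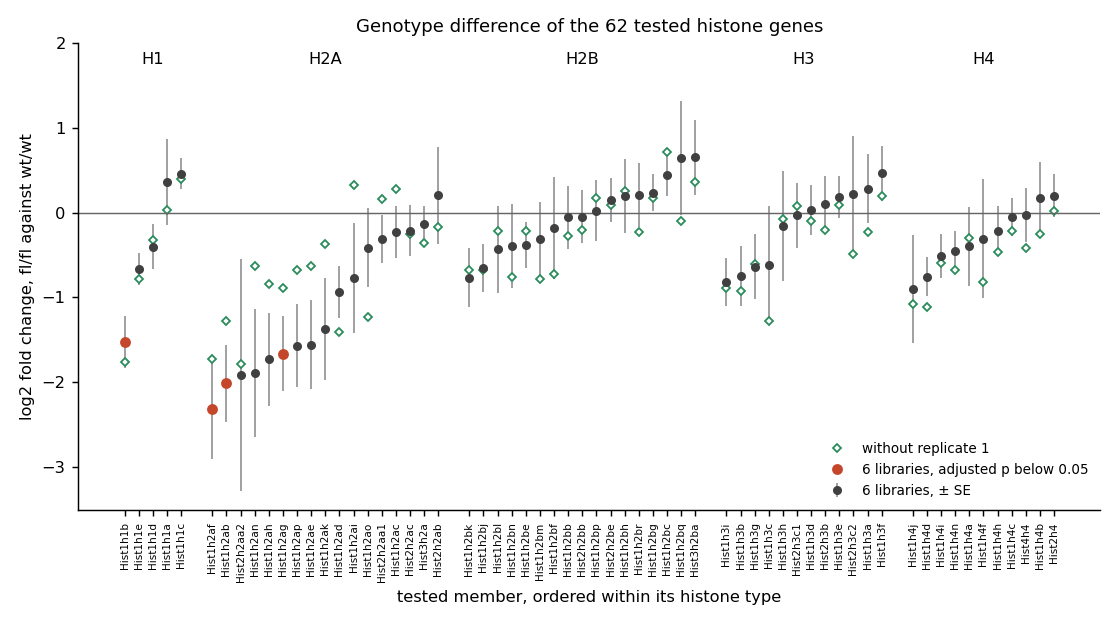
Log2 fold change of fl/fl against wt/wt for the 62 tested members, ordered within their type, with bars for the SE (filled circles, n = 3 libraries each), and the value in the fit without replicate 1 (open diamonds). Red marks the 4 members at an adjusted p below 0.05 with all libraries, and in H2A the diamonds of 12 of 17 genes lie nearer to 0 than the circles.

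Linker histones. Hist1h1b (ENSMUSG00000058773.2, chromosome 13 from 21779883 to 21780625), which encodes H1.5, had 16.8, 23.8 and 15.1 CPM in wt/wt libraries 1, 2 and 4 and 8.15, 4.19 and 7.39 in fl/fl libraries. All fl/fl values were below all wt/wt values, the fl/fl mean being 35.4% of the wt/wt mean. The log2 fold change was −1.52 ± 0.306 (SE, adjusted p = 0.0176, edgeR), and it was −1.76 (adjusted p = 0.0348, edgeR) without replicate 1. Without replicate 2 its adjusted p was not below 0.05 in edgeR. Hist1h1e, the gene of H1.4, had 21.2, 24.0 and 25.2 CPM in wt/wt and 15.6, 15.9 and 12.9 in fl/fl libraries, again without overlap. Its log2 fold change of −0.67 ± 0.189 had an adjusted p of 0.0610 in edgeR, which does not pass. With no replicate block its adjusted p was 0.0290 (edgeR), below 0.05 but not below 0.01. Hist1h1c, the gene of H1.2, went the other way, with 11.6, 17.7 and 18.7 CPM in wt/wt and 17.7, 22.0 and 25.9 in fl/fl libraries. Here the genotypes overlapped and the log2 fold change was 0.46 ± 0.180 (adjusted p = 0.163, edgeR). Hist1h1d (−0.40) and Hist1h1a (0.37) did not pass either.

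H2A genes. The difference of H2A genes was the one that depended most on wt/wt library 1. Of 17 tested genes, 16 were below 0, against 48.5% of all genes, and the median log2 fold change was −1.37. In 7 every fl/fl library lay below every wt/wt library, against 15.1% of all genes. Without replicate 1 the median was −0.64, with 14 of 17 below 0, against 49.8% of all genes. Hist1h2ap had 6802, 796 and 978 CPM in wt/wt libraries 1, 2 and 4 and 582, 487 and 623 in fl/fl libraries. All fl/fl libraries were below all wt/wt libraries, and the first wt/wt library was 6.96 times the next highest. The log2 fold change was −1.57 ± 0.488 (adjusted p = 0.0854, edgeR) with all libraries and −0.68 (adjusted p = 0.0372, edgeR) without replicate 1.

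The near copy Hist1h2ao showed the opposite pattern in that library. It had 23.6 CPM there, while wt/wt libraries 2 and 4 had 147 and 157, and the fl/fl libraries 68.5, 50.6 and 82.5. With all libraries its log2 fold change was −0.41 ± 0.465 (adjusted p = 0.673, edgeR), and without replicate 1 it was −1.23 (adjusted p = 0.0161, edgeR). Hist1h2ae had 365, 36.3 and 51.7 CPM in wt/wt and 31.3, 34.8 and 22.5 in fl/fl libraries, so the genotypes were apart, but the lowest wt/wt value was close to the highest fl/fl value. Its log2 fold change was −1.56 ± 0.525 (adjusted p = 0.107, edgeR), and −0.63 without replicate 1.

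None of the 3 H2A genes at an adjusted p below 0.05 passed without replicate 1. Hist1h2ab had 36.6, 6.95 and 7.92 CPM in wt/wt and 3.18, 2.01 and 4.57 in fl/fl libraries, a log2 fold change of −2.01 ± 0.450 (adjusted p = 0.0268, edgeR). Hist1h2ag had 43.5, 7.32 and 8.44 CPM against 4.37, 3.97 and 4.51, with −1.66 ± 0.443 (adjusted p = 0.0499, edgeR). Hist1h2af, with the lowest log2 fold change of the 62 at −2.32 ± 0.584 (adjusted p = 0.0418, edgeR), had only 3.90, 0.443 and 0.733 CPM against 0.374, 0.146 and 0.201. Without replicate 1 their log2 fold changes were −1.28, −0.89 and −1.73 with adjusted p-values of 0.0788, 0.117 and 0.199 in edgeR, in that order. The lower value of Hist1h2af supports nothing, since its fl/fl libraries alone would not have met the filter. Hist1h2ad was lower without replicate 1 (−1.41, adjusted p = 0.0187, edgeR), with 11.8, 26.9 and 23.5 CPM in wt/wt and 12.8, 8.47 and 10.6 in fl/fl libraries. At the other end, Hist2h2ab had 0.20 ± 0.570 (adjusted p = 0.893, edgeR), and turned to −0.17 without replicate 1.

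**Figure D3:**
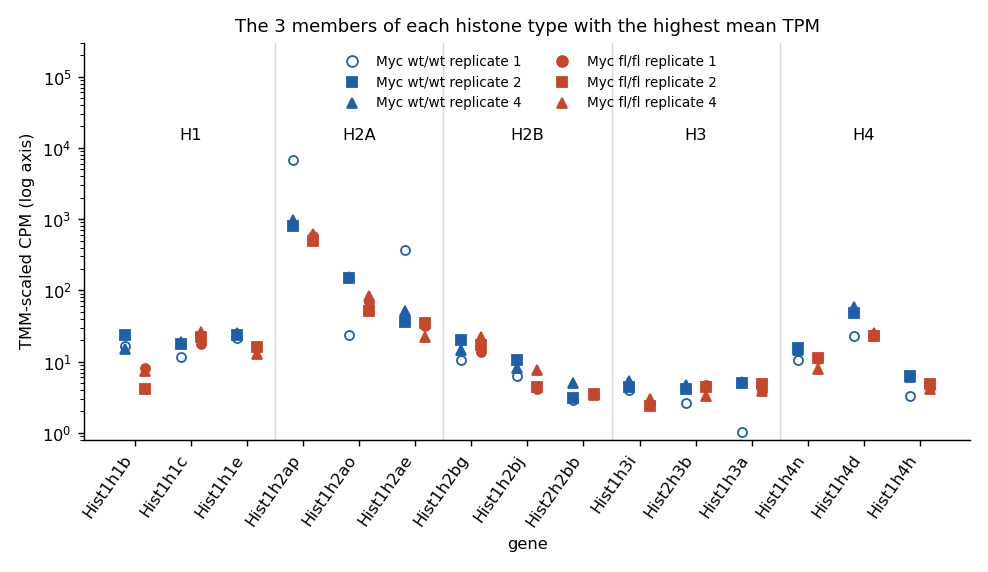
CPM (TMM-scaled, log axis) in each library of the 3 members of each histone type with the highest mean TPM, blue for Myc wt/wt, red for Myc fl/fl, open circle for wt/wt library 1. For Hist1h2ap and Hist1h2ae the open circle is the highest point, at 6802 and 365 CPM, while it is the lowest in 8 of the 15 genes, Hist1h2ao (23.6 CPM) and Hist1h4d (23.0 CPM) among them.

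H2B genes. No H2B gene passed. Of 17 tested, 9 were below 0 and 8 above, around a median of −0.05 (−0.21 without replicate 1). The 3 with the highest mean TPM were Hist1h2bg, Hist1h2bj and Hist2h2bb. Hist1h2bg had 10.7, 20.1 and 14.6 CPM in wt/wt and 13.7, 17.05 and 21.9 in fl/fl libraries, a log2 fold change of 0.23 ± 0.216 (adjusted p = 0.592, edgeR). Hist1h2bj had 6.24, 10.5 and 8.20 CPM in wt/wt and 4.15, 4.43 and 7.55 in fl/fl libraries, with −0.65 ± 0.281 (adjusted p = 0.204, edgeR). Both genes overlapped between genotypes. Hist2h2bb had −0.05 ± 0.312. The ends of the range were Hist1h2bk with −0.77 ± 0.346 (adjusted p = 0.225, edgeR), the only H2B gene without overlap, and Hist3h2ba with 0.65 ± 0.445 (adjusted p = 0.444, edgeR).

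H3 genes. Of 12 tested H3 genes, 6 were below 0 and 6 above, with a median of −0.00 that moved to −0.22 without replicate 1, where 9 of 12 were below 0. Hist1h3i had 4.03, 4.47 and 5.36 CPM in wt/wt and 2.55, 2.36 and 2.96 in fl/fl libraries, a log2 fold change of −0.82 ± 0.284 (adjusted p = 0.117, edgeR). Its genotypes did not overlap, nor did those of Hist1h3b and Hist1h3g, which makes 3 of 12 lower without overlap, against 15.1% of all genes. Only 6.82% of the words of Hist1h3i are its own. Hist2h3b had a log2 fold change of 0.10 ± 0.326 and Hist1h3a one of 0.28 ± 0.409, and these turned without replicate 1, to −0.21 and −0.23. Hist1h3f was highest, with 0.46 ± 0.324 (adjusted p = 0.456, edgeR).

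H4 genes. Of 11 tested H4 genes, 9 were below 0, against 48.5% of all genes, the median being −0.31. Without replicate 1, 10 of the 11 were below 0, against 49.8% of all genes, at a median of −0.46. Hist1h4d (chromosome 13 from 23581598 to 23582735) was the H4 gene with the most counts. It had 23.0, 47.9 and 58.1 CPM in wt/wt and 23.6, 23.2 and 25.5 in fl/fl libraries, so that wt/wt libraries 2 and 4 were above all fl/fl libraries and library 1 was not. Its log2 fold change was −0.76 ± 0.232 (adjusted p = 0.0822, edgeR), and −1.12 (adjusted p = 0.0167, edgeR) without replicate 1. With wt/wt library 1 alone left out and no replicate block, Hist1h4d was the single member called, at −1.15, where 0.814% of all genes were called lower and 0.708% higher. Hist1h4n had 10.4, 15.5 and 14.7 CPM against 10.8, 11.1 and 7.99, with −0.45 ± 0.234 (adjusted p = 0.297, edgeR). Hist1h4h had −0.21 ± 0.289, Hist1h4j −0.90 ± 0.636 at under 1 CPM, and Hist2h4 0.20 ± 0.251. Hist1h4k, untested with all libraries, had 0, 0.620 and 0.779 CPM in wt/wt and 0.0510, 0 and 0.0670 in fl/fl libraries.

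Members were also grouped by the annotated end of the transcript that held most of their counts, a grouping made after the values had been seen, so that it carries no test. Transcripts that ended within 100 bases of the stem-loop (20 tested genes) had log2 fold changes around a median of −0.43, 18 of them below 0. Those that ran on for more than 100 bases (20 genes) had a median of −0.03, with 11 below 0. Those with no match in the annotated sequence (22 genes) had a median of −0.40, with 14 below 0. Without replicate 1 these medians were −0.70, −0.16 and −0.24. The order of the first and second group was thus kept without the shallow library, but their ranges overlapped, with Hist1h2ae at −1.56 and Hist1h1e at −0.67 among the genes that run on. Types are spread unevenly over the groups, since 8 of the 20 genes that end at the stem-loop are H2A, against 3 of the 20 that run on. Within types, the genes that end there had lower medians than those that run on in H2A (−1.25 and −0.23), H2B (−0.25 and 0.21), H3 (−0.62 and 0.18) and H4 (−0.31 and −0.05), with 3 to 8 genes in each group.

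**Figure D4:**
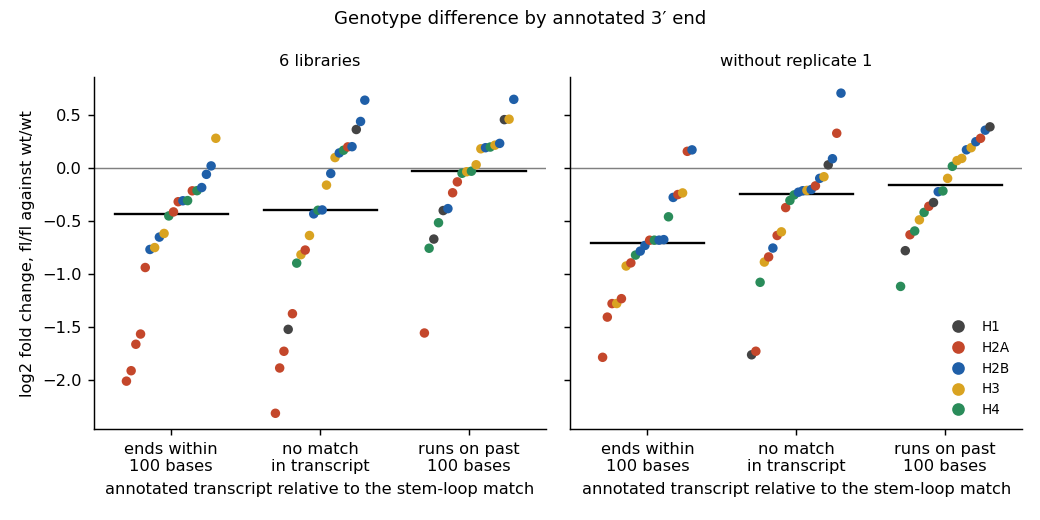
Log2 fold change of fl/fl against wt/wt of the 62 tested members by the annotated end of their main transcript, with all 6 libraries (left) and without replicate 1 (right). Each point is a gene coloured by histone type and each line is the group's median, which is −0.43, −0.40 and −0.03 from left to right in the left panel and −0.70, −0.24 and −0.16 in the right panel.

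Most member transcripts have a single exon, and 8 of the 75 in the tables have 2 or more. Reads across splice junctions were not examined, so that the values are of annotated transcripts. Those with 2 or more exons held 0.246%, 1.24% and 1.08% of the member counts in wt/wt libraries 1, 2 and 4 and 1.60%, 2.25% and 2.84% in fl/fl libraries. Their mean share was 0.855 ± 0.533% and 2.23 ± 0.620% (SD over 3 libraries), without overlap of the genotypes. As a level, they had 19.2, 17.3 and 17.5 CPM in wt/wt and 16.2, 20.1 and 30.3 CPM in fl/fl libraries, which overlap. The single-exon transcripts, by contrast, had 7764, 1386 and 1592 CPM in wt/wt and 993, 876.5 and 1036 in fl/fl libraries, without overlap. Most of the level on transcripts with 2 or more exons belonged to Hist1h2bc, an H2B gene with 13.9, 11.9 and 12.5 CPM in wt/wt and 12.6, 15.4 and 25.7 in fl/fl libraries (log2 fold change 0.44 ± 0.244, adjusted p = 0.328, edgeR). The only transcript counted for Hist1h2bc has 2 exons, so that all its counts fall in this group, whether or not the reads were spliced.

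H2A and H2B genes often lie head to head, with start sites on opposite strands and a shared stretch of promoter between them. Among the genes in the tables there were 12 such pairs, with 176 to 306 bases between the start sites, and in 11 both genes were tested. In all 11 the log2 fold change of the H2A gene was below that of its H2B partner, with medians of −1.37 and 0.02. Without replicate 1 this held in 9 of 11, with medians of −0.64 and −0.21. Hist1h2ae and Hist1h2bg, whose common promoter is shown above, had −1.56 and 0.23 with all libraries and −0.63 and 0.17 without replicate 1. For Hist1h2ap and Hist1h2br they were −1.57 and 0.20, and −0.68 and −0.23. Pairs are not replicates of the genotypes, and H2A genes share reads with one another.

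**Figure D5:**
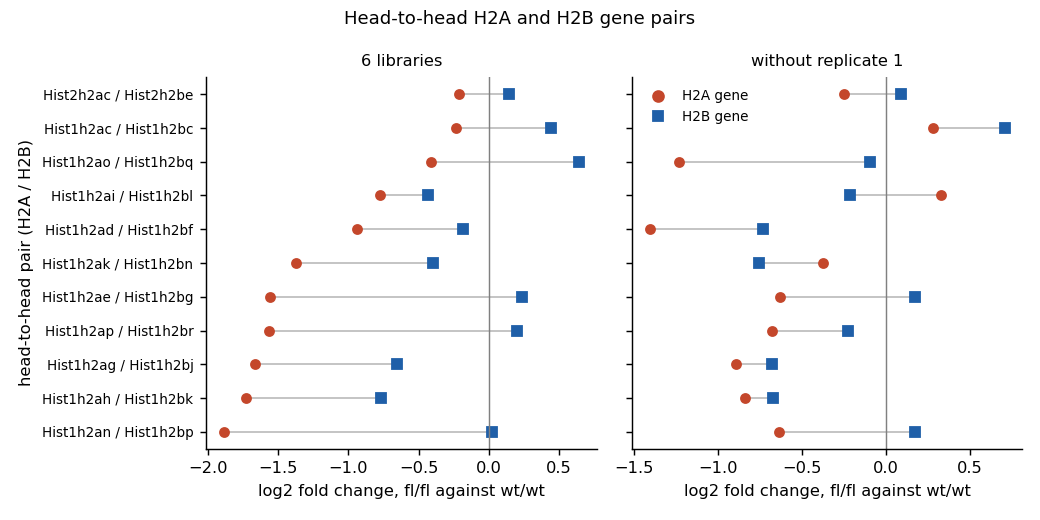
Log2 fold change of fl/fl against wt/wt of the H2A gene (red circle) and the H2B gene (blue square) of 11 head-to-head pairs, with all 6 libraries (left) and without replicate 1 (right). In the left panel the circle lies left of the square in all 11 pairs, and in the right panel in 9.

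Genes that act on histone mRNA were described from a list of 31 (transcription of histone genes, 3′ end cutting, decay). Of these, 28 were below 0, the median log2 fold change was −0.22, none was called, and 2 were lower at an adjusted p below 0.05, against 3.38% of all genes (48.5% of which were below 0). Slbp, which binds the stem-loop, had 464, 424 and 402 CPM in wt/wt and 411, 373 and 392 in fl/fl libraries, a log2 fold change of −0.13 ± 0.130 (adjusted p = 0.620, edgeR). Npat, the coactivator of histone gene transcription, had −0.04 ± 0.180, and Casp8ap2, which is needed for histone mRNA processing, −0.40 ± 0.153 (adjusted p = 0.155, edgeR). Lsm10 and Lsm11, the proteins particular to the U7 particle, had 0.07 ± 0.159 and −0.33 ± 0.228. The genes below an adjusted p of 0.05 were Snrpf (−0.64 ± 0.142, adjusted p = 0.0258, edgeR) and Snrpe (−0.60 ± 0.134, adjusted p = 0.0266, edgeR), whose Sm proteins belong to the U7 and to the spliceosomal particles alike. Without replicate 1 their adjusted p-values were 0.0321 and 0.0813 (edgeR), and the other gene below 0.05 was Snrpd3, a further Sm protein gene, with −1.16 (adjusted p = 0.0185, edgeR). Ccne2, a cyclin that activates Cdk2 at the entry to S phase, had −0.59 ± 0.164 (adjusted p = 0.0576, edgeR).

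Variant histones such as H2A.Z and H3.3 are also made outside S phase. Of 11 variant genes 7 were below 0, with a median of −0.07, and none was called. H2afz, which encodes H2A.Z, had 1868, 1455 and 1527 CPM in wt/wt and 1032, 979 and 772 in fl/fl libraries, without overlap. Its log2 fold change was −0.80 ± 0.143 (adjusted p = 0.0105, edgeR), and −0.78 (adjusted p = 0.0327, edgeR) without replicate 1. H3f3b, a gene of H3.3, had 1965, 2008 and 2158 CPM against 2716, 2679 and 2738, without overlap in the other direction, with 0.41 ± 0.133 (adjusted p = 0.0971, edgeR). H3f3a, which encodes the same protein, had −0.14 ± 0.156, and Cenpa, the centromeric H3, −0.51 ± 0.1497 (adjusted p = 0.0708, edgeR). H2afx, whose mRNA can also end in a stem-loop, had −0.39 ± 0.210 (adjusted p = 0.311, edgeR), and −0.73 (adjusted p = 0.0429, edgeR) without replicate 1. Further H2A variants had log2 fold changes of −0.13 ± 0.162 for H2afv, −0.07 ± 0.205 for H2afj, −0.01 ± 0.144 for H2afy and 0.34 ± 0.604 for H2afy2. The linker variants H1f0 and H1fx had 0.61 ± 0.365 and 1.23 ± 0.627, and neither passed. Without replicate 1 their values were 0.03 and 0.68.

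Of 25 histone chaperones and importers, 21 were below 0, against 48.5% of all genes, with a median of −0.35. At an adjusted p below 0.05 in edgeR 4 were lower, against 3.38% of all genes, and 1 was called lower, against 0.872%. Without replicate 1 these numbers were 1, against 1.69% of all genes, and 0, against 0.0636%. Npm1 was called, with 481, 361 and 409 CPM in wt/wt and 175, 205 and 192 in fl/fl libraries, and fell by 1.12 on the log2 scale (SE 0.156, adjusted p = 0.00446, edgeR). Npm1 is a nucleolar chaperone with a role in ribosome assembly, and without replicate 1 its adjusted p of 0.0185 (edgeR) missed the threshold. Asf1b, which hands H3 and H4 to the replication fork, had −0.70 ± 0.147 (adjusted p = 0.0203, edgeR), and Ipo4, their importer, −0.995 ± 0.215 (adjusted p = 0.0235, edgeR). Nap1l1 was also below 0.05, with −0.78 ± 0.183 (adjusted p = 0.0320, edgeR). Without replicate 1 the adjusted p-values of Asf1b, Ipo4 and Nap1l1 were 0.0749, 0.0942 and 0.119 (edgeR). Of 26 S phase genes all were below 0, against 48.5% of all genes, with a median of −0.62. Of these, 15 had an adjusted p below 0.05 in edgeR, against 3.38% of all genes, and 1 was called lower, against 0.872%. Without replicate 1 only 2 of the 26 (Dut and Pola1) had an adjusted p below 0.05, against 1.69% of all genes, and 0 were called in edgeR. The gene called with all 6 libraries was Dut, the dUTPase that guards the nucleotide pool, which fell by 0.85 on the log2 scale (SE 0.145, adjusted p = 0.00907, edgeR). Tyms, which makes thymidylate, had −0.74 ± 0.138 (adjusted p = 0.0131, edgeR), and Pola1, the catalytic subunit of DNA polymerase alpha, −0.81 ± 0.155 (adjusted p = 0.0144, edgeR). Without replicate 1 the median of these genes was −0.48, and with wt/wt library 1 alone left out and no replicate block it was −0.53. The H2A median was −1.37, −0.64 and −0.44 in these 3 fits, so that its order against the S phase genes turned in the last.

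The labelled cell type was checked against markers, and those of other BM cells moved with the genotype. All 12 NK cell markers were present, with a summed level of 12826 to 13144 CPM in wt/wt and 14866 to 16782 in fl/fl libraries. Il2rb and Klrk1, with the highest levels, had log2 fold changes of 0.47 and −0.05, and that value stands in parentheses for the markers that follow. Of the 12, 9 were above 0 and 3 below, against 51.5% and 48.5% of all genes. At an adjusted p below 0.05 in edgeR, 2 were higher, Gzmb (1.73) and Cd7 (0.60), against 4.45% of all genes, while Gzma (−0.64) was the lowest. Basophil and mast cell markers summed to 82.4 to 102 CPM in wt/wt and 257 to 526 in fl/fl libraries. Of the 11 tested, 9 were called higher, Kit (1.26) and Prss34 (5.20) among them, against 1.28% of all genes. Fcer1a and Cd200r3, also called, would not have met the filter on low counts by their wt/wt libraries alone, so that these calls support nothing. Neutrophil and myeloid progenitor markers summed to 86.5 to 143 against 549 to 914 CPM. Of the 11 tested, 5 were called higher, among them Mpo (2.60) and Elane (2.90). Erythroid markers summed to 635 to 875 against 1330.5 to 1698 CPM, with 3 of 12 called higher, while the 2 with the highest levels, Car2 (−0.09) and Hba-a2 (3.46), were not. Monocyte markers summed to 1708 to 1925 against 2157 to 2445 CPM, mostly Ccr2 (0.25) and Ly6c2 (0.83), with 5 of 11 tested called higher. B cell markers summed to 8.06 to 19.5 against 32.1 to 38.7 CPM, led by Dntt (2.02) and Cd79b (0.87), and none of the 8 tested was called. T cell markers overlapped, at 940 to 1311 and 960 to 1248 CPM, with Trbc1 (−0.02) and Trbc2 (0.34) the highest. Without replicate 1, 0.312% of all genes were called higher. The markers called higher then numbered 3 for basophils and mast cells, 4 for neutrophils and myeloid progenitors, 3 for erythroid cells and 0 for monocytes. The part of such cells in the histone values was not tested.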

How the data were processed

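Immature CD27SP NK cells were measured by RNA-seq of sorted cells in 3 libraries per genotype. The estimated counts and TPM of 100583 transcripts were deposited by the authors in 1 table per library. The study's methods name a SMART-Seq v4 kit with poly(A) selection, single-end reads, Salmon and GRCh38, a human build, whereas the deposited columns have the form that kallisto writes and hold mouse transcripts. Version numbers are not given in the sources used here.

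From these files, 100239 transcripts were matched to GENCODE M21 and estimated counts were summed per symbol and rounded. Genes were tested with edgeR 4.0.16 (R 4.3.3) by quasi-likelihood, with filterByExpr, TMM scaling, the replicate number as a block, as the paired design of the study, and Benjamini-Hochberg adjustment over 15474 genes. limma 3.58.1 and DESeq2 1.42.0 served as alternatives. The fits were tested on simulated data. Counting error is larger in wt/wt library 1, with 8101219 counts. Sums over types are of TMM-scaled CPM and carry no test.

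Members and lists were chosen with earlier results of these data known. The text names members past the threshold, the 3 with the highest mean TPM and those with the lowest and highest fold change in each type, the 3 listed genes with the smallest p in each related list with every variant and 5 processing genes, 2 markers per list, and Myc and Mki67. Other genes were named after their values were seen. The omission of wt/wt library 1 alone, the sums without Hist1h2ap, the median over members and the grouping by transcript end were also chosen after seeing the data. Further alternatives were other scalings, filters and thresholds, no block, and leaving out each replicate.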

Additional observations from a re-analysis of the deposited data

How the results depend on the processing

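No member was called higher under any alternative. Called lower were 4 members with DESeq2 (6.45%, against 3.47% of all genes), 4 with no filter on low counts (6.06% against 1.83%), 4 at an adjusted p below 0.05 with no fold change limit (6.45% against 3.38%), 0 to 2 with 1 replicate left out (2 without replicate 4, Hist1h1b and Hist1h2ab, 3.23% against 0.735%), and 1 with no replicate block and without wt/wt library 1 (against 0.814%). Deviations of same-numbered libraries correlated at −0.01, −0.02 and 0.05. With 3 libraries per genotype this shows no shared deviation but cannot tell whether the libraries were paired. With no replicate block 0 members were called, with a median of −0.37 and Myc at −1.43. The members' median ranged from −0.37 to −0.11 over the alternatives. Myc ranged from −1.62 to −1.30 with 1 replicate left out and missed the threshold without replicate 1. The H2B log2 ratio, 0.07 with all libraries, was −0.0202 over single-exon transcripts, −0.0405 without wt/wt library 1 and −0.00123 to 0.16 with 1 replicate left out, and that of H3 was −0.27 to 0.0948, so neither direction held. The H2A ratio was −2.57 to −0.69 and that of all members −2.27 to −0.62 with 1 replicate left out, the values nearest 0 being those without replicate 1. The difference in the share of transcripts with 2 or more exons was 0.351 percentage points of TPM against 1.38 of counts.

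Directions of single genes also turned. With 1 replicate left out, log2 fold changes ranged from −1.23 to 0.25 for Hist1h2ao, −0.17 to 0.71 for Hist2h2ab, −0.20 to 0.23 for Hist2h2bb, −0.21 to 0.42 for Hist2h3b, −0.23 to 0.70 for Hist1h3a, −0.17 to 0.18 for Npat, −0.00425 to 0.15 for Lsm10, −0.32 to 0.0361 for H2afv, −0.13 to 0.0894 for H2afy, −0.000302 to 0.97 for H2afy2, −0.40 to 0.13 for H2afj and −0.27 to 0.0206 for H3f3a. With no replicate block and without wt/wt library 1 they were −0.11 for Hist2h3b, −0.29 for Hist1h3a and 0.0594 for H2afy. With effective length offsets they were 0.000485 for Hist2h2bb, 0.0837 for H2afy and 0.00441 for H2afj. H2afy was 0.00759 with library sizes alone, 0.00685 without a filter and 0.00103 with a minimum mean of 0.5 CPM. What caused these shifts was not tested. Depth limits mainly wt/wt library 1, where 44 members had 10 counts or more.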

Other observations

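Chromosome 13 carries 56 of the 70 histone symbols and chromosome 3 carries 10. The 49 tested members on chromosome 13 had log2 fold changes with the median −0.40, 36 of them below 0, and the 10 on chromosome 3 with the median 0.03, 5 of them below 0. Without replicate 1 the medians were −0.59, with 39 of 49 below 0, and −0.18, with 6 of 10 below 0. The 13 members whose genotypes did not overlap lie on chromosome 13, as do 49 of the 62 tested members.

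In wt/wt library 1, 110 of the 15474 tested genes (0.711%) had at least 2 times their highest level in any other library, and 12 of them were histone members, all of type H2A. Hist1h2an had 15.98 times, Hist1h2ah 11.3 times, Hist1h2ak 7.93 times and Hist1h2ai 7.62 times that level.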
